A study of Mus musculus with 11 samples.

Results

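Inhibitory receptors of CD4 T cells were described through 7 genes: Pdcd1, Ctla4, Lag3, Havcr2, Cd160, Btla and Cd244a. Every probe set that the array annotation assigned to these symbols was taken, which gave 11 probe sets for the 7 genes, out of 45037 probe sets and 17097 genes measured. Pdcd1, Ctla4, Lag3, Havcr2 and Btla had 1 probe set each, Cd160 had 4 and Cd244a had 2. RNA was measured on 11 single-colour arrays from male NOD mice aged 16 weeks, whose lacrimal glands become inflamed by an autoimmune response. LG_eTreg (effector regulatory) and LG_eTconv (effector conventional) were lacrimal gland CD4 T cells sorted as high for PD-1 and ICOS. LG_naive were gland CD4 T cells negative for both proteins, so that this group is defined by the absence of 2 surface proteins. Each gland group had 3 arrays. Spl_CD8 and Spl_CD4 were all CD8 and all CD4 T cells from spleens of the same mice, with 1 array each and therefore no replicate check. All gland cells were live and positive for CD4 and TCRβ. The design text gives a gate low for CD73 and CD200 in the same words for both effector subsets, so it does not say what separated them. The labels do not say whether the 3 arrays of a group came from separate mice or pools, so p-values reflect sample-to-sample spread that may be purely technical. In sorted bulk samples, fewer expressing cells and less RNA per cell cannot be told apart.

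Many inhibitory receptors are induced on T cells that have met antigen, and their engagement limits signals from the T cell receptor and from CD28. PD-1 recruits the phosphatase SHP-2, CTLA-4 competes with CD28 for CD80 and CD86, and LAG-3 binds MHC class II. TIM-3 (Havcr2) is found on T helper 1 cells, regulatory T cells and myeloid cells, BTLA and the lipid-anchored CD160 share the ligand HVEM, and the SLAM family receptor Cd244a binds CD48 and is best known from natural killer and CD8 T cells. Regulatory T cells carry CTLA-4 constantly and use it to strip its ligands from antigen-presenting cells.

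The background limit of an array, the highest of its 23 nonspecific control probe sets, lay between 0.945 and 1.70 on the log2 scale over the 11 arrays. Between 9483 and 11211 genes lay above it, and the median over genes was 2.26 to 2.39 on every array. LG_eTreg 3 and LG_naive 1 had the highest signal of the 18S ribosomal RNA control, 6.69 and 6.63, against 4.34 to 5.68 on the other 9 arrays. Where the call of a named receptor, ligand, relative, signalling gene or transcription factor ended without these 2 arrays, that value is given. As a measure of RNA quality, the actin control probed at its 3′ end exceeded that probed at its 5′ end by a log2 value of 1.62 to 2.86 in LG_eTreg, 1.84 to 3.35 in LG_eTconv and 1.83 to 2.0 in LG_naive, and its part in the results was not tested. The T cell identity of the gland groups was visible in 7 T cell markers, each above background on every array. Foxp3, the regulatory T cell factor, was at 8.18 ± 0.05 in LG_eTreg, 4.24 ± 0.62 in LG_eTconv and 3.95 ± 1.05 in LG_naive (mean log2 signal ± SD, n = 3 each), highest in the group labelled regulatory. Although the gate of both effector subsets was low for the CD200 protein, Cd200 RNA averaged 8.24 in LG_eTreg, 9.34 in LG_eTconv and 5.73 in LG_naive. RNA of Nt5e, the gene of CD73, averaged 7.87 in LG_eTreg, 8.80 in LG_eTconv and 4.45 in LG_naive. Cd200 and Nt5e were both called as lower in LG_eTreg than in LG_eTconv (limma adjusted p = 0.00222 and 0.0462).

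Promoters of 4 of the genes are shown because each stands for a different order of the groups in the values below: Ctla4 high in both effector subsets, Btla highest in LG_eTconv, Havcr2 highest in LG_eTreg and Cd244a highest in LG_naive. The sequences run from 250 bases before to 50 bases after the gene start and come from RefSeq on GRCm38.p6, the reference strain and not NOD. Capitals mark matches, on either strand, to the AP-1 motif TGANTCA, the NFAT core GGAAA and the T-box core TCACAC, and each run of capitals is 1 match. Ctla4 is shown at chr1:60908775-60909074, Btla at chr16:45224087-45224386, Havcr2 at chr11:46454681-46454980 and Cd244a at chr1:171558943-171559242, each on the plus strand.
Ctla4: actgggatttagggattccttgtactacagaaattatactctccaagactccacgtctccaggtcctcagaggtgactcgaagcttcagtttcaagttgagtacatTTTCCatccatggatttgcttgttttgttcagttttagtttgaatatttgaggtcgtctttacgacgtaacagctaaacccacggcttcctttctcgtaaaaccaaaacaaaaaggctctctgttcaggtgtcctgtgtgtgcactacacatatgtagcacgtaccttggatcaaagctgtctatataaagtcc
Btla: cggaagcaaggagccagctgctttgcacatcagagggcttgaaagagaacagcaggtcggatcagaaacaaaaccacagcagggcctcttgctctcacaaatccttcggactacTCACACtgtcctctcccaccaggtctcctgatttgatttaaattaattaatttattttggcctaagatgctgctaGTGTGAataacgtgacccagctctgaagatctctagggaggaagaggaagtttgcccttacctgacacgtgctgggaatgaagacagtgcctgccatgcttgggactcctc
Havcr2: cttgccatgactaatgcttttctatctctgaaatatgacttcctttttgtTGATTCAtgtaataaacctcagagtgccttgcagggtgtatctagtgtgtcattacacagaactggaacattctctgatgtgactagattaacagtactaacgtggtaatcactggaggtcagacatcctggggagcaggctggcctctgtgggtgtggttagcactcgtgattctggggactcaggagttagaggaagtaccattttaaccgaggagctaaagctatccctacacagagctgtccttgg
Cd244a: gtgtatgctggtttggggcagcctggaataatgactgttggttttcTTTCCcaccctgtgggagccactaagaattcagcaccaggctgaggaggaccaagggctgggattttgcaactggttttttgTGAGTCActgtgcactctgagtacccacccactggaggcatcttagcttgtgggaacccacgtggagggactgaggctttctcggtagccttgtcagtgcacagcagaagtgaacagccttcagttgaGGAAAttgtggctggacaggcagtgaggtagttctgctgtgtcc
Ctla4 held 1 NFAT core, 144 bases before the start. Btla held 2 T-box cores, 136 and 61 bases before it, and Havcr2 1 AP-1 match 200 bases before it. Cd244a held 1 AP-1 match 122 bases before the start and NFAT cores 204 bases before and 6 bases after it. Of 32851 promoters of the same length, 7.81% held the AP-1 motif, 61.3% the NFAT core and 14.5% the T-box core. A match describes letters in the window and does not show binding. Promoters were found for 6 of the 7 genes, all but Lag3.

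The receptors did not share 1 pattern. Ctla4 and Lag3 were higher in both effector subsets than in LG_naive, Btla was higher in LG_eTconv, Havcr2 was higher in LG_eTreg, and Cd244a was lower in both effector subsets. Between the effector subsets, Havcr2 and Cd244a were higher and Btla lower in LG_eTreg. The Cd244a calls of LG_eTreg, against LG_naive and against LG_eTconv, were each lost in several other settings, given below. Of the 6 genes other than Pdcd1, 4 were called in LG_eTreg against LG_naive (3 higher, 1 lower), where 11.7% of all genes were called (6.2% higher, 5.47% lower). Likewise 4 were called in LG_eTconv against LG_naive (3 higher, 1 lower), where the share over all genes was 13.5% (6.45% higher, 7.02% lower). In LG_eTreg against LG_eTconv 3 were called (2 higher, 1 lower), against 5.69% of all genes (2.94% higher, 2.75% lower). Calls are limma tests over the 9 gland arrays with a Benjamini-Hochberg adjusted p under 0.05 over all genes. Values of the 2 groups did not overlap for 5 of the 6 genes in each comparison with LG_naive and for 4 of 6 between the effector subsets. Over all genes such separation was seen in 27.1% for LG_eTreg against LG_naive, 31.1% for LG_eTconv against LG_naive and 21.5% for LG_eTreg against LG_eTconv. Without LG_eTreg 3 and LG_naive 1, 2 of the 6 genes were called in LG_eTreg against LG_naive, 6 in LG_eTconv against LG_naive and 3 in LG_eTreg against LG_eTconv.

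**Figure D1:**
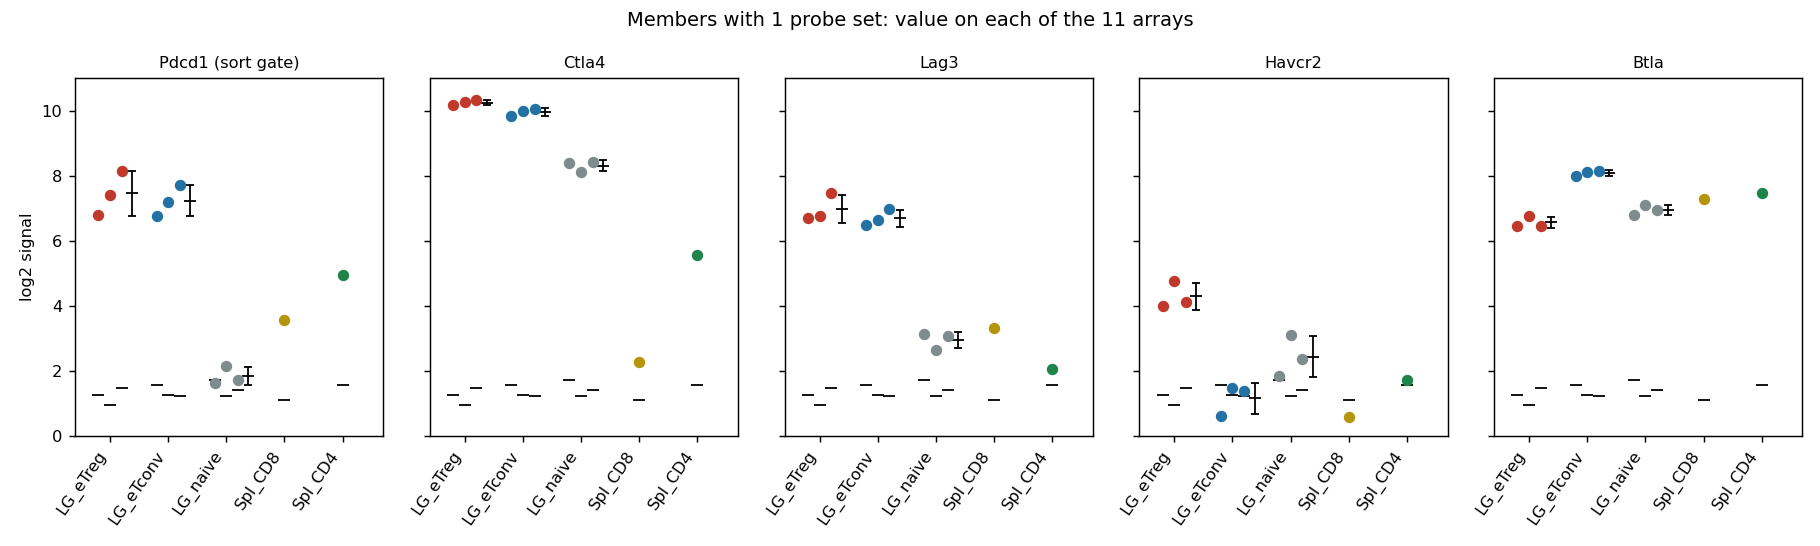
Log2 signal (vertical axis) of the 5 genes with 1 probe set on each of the 11 arrays, by group (LG_eTreg, LG_eTconv, LG_naive, Spl_CD8, Spl_CD4); short dashes mark each array's background limit and bars the group mean ± SD for the gland groups (n = 3 each). Lag3 lies between 6.48 and 7.48 on the 6 effector arrays and between 2.65 and 3.11 in LG_naive, Btla is highest in LG_eTconv, and Havcr2 is highest in LG_eTreg.

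Pdcd1, which encodes PD-1, checks the sort and is no finding. Its log2 signal was 6.80, 7.41 and 8.16 in LG_eTreg, 6.77, 7.19 and 7.72 in LG_eTconv and 1.63, 2.15 and 1.70 in LG_naive. It was 3.55 in Spl_CD8 and 4.95 in Spl_CD4. Both effector subsets lay far above LG_naive, as their gate sets, and overlapped each other. One LG_naive array, at 1.63, was below its background limit.

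Ctla4 was called as higher in both effector subsets but was also well above background in LG_naive. Its log2 signal was 10.19, 10.26 and 10.32 in LG_eTreg, 9.84, 10.01 and 10.06 in LG_eTconv and 8.38, 8.12 and 8.42 in LG_naive. No 2 groups overlapped. Against LG_naive the log2 difference was 1.95 in LG_eTreg (SE 0.12, 3.86-fold, limma adjusted p = 2.18e-05) and 1.66 in LG_eTconv (SE 0.12, 3.16-fold, adjusted p = 3.82e-05). LG_eTreg and LG_eTconv differed by 0.29, which did not pass the test (adjusted p = 0.267). On a linear scale that difference is 1.22-fold, between subsets whose Foxp3 levels were far apart. The spleen arrays lay lower, at 2.27 in Spl_CD8 and 5.57 in Spl_CD4, so that every LG_naive array also exceeded Spl_CD4.

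Lag3 showed the widest excess over LG_naive among the 6 genes that were not part of the gate, in both effector subsets. Its log2 signal was 6.70, 6.75 and 7.48 in LG_eTreg, 6.48, 6.63 and 6.98 in LG_eTconv and 3.11, 2.65 and 3.06 in LG_naive. The effector subsets overlapped each other and both lay above every LG_naive array. The log2 difference from LG_naive was 4.04 in LG_eTreg (SE 0.24, 16.4-fold, limma adjusted p = 2.05e-05) and 3.75 in LG_eTconv (SE 0.24, 13.5-fold, adjusted p = 2.09e-05). Between LG_eTreg and LG_eTconv it was 0.28 (adjusted p = 0.679). Spl_CD8 was at 3.30 and Spl_CD4 at 2.05, so the LG_naive range lay between the 2 spleen values.

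Btla, whose protein carries inhibitory tyrosine motifs and binds HVEM, was highest in LG_eTconv. Its log2 signal was 6.47, 6.76 and 6.46 in LG_eTreg, 7.99, 8.11 and 8.16 in LG_eTconv and 6.79, 7.10 and 6.96 in LG_naive. The LG_eTconv values stood apart from all other arrays, including 7.29 in Spl_CD8 and 7.47 in Spl_CD4, and LG_eTreg was lowest. LG_eTconv exceeded LG_naive by a log2 difference of 1.14 (SE 0.13, 2.20-fold, limma adjusted p = 0.000487). LG_eTreg was below LG_eTconv by a log2 difference of -1.52 (SE 0.13, 2.87-fold, adjusted p = 0.000208). LG_eTreg minus LG_naive was -0.38 and missed the threshold (adjusted p = 0.102), although the groups did not overlap.

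Cd160, a lipid-anchored receptor that also binds HVEM, was higher in LG_eTconv on 3 of its 4 probe sets. On probe set 1420067_PM_at its log2 signal was 2.05, 2.37 and 2.27 in LG_eTreg, 4.50, 5.0 and 4.90 in LG_eTconv and 2.29, 2.0 and 3.05 in LG_naive. Probe set 1420066_PM_s_at, which was made from the same source sequence, gave 0.86, 1.15 and 1.26 in LG_eTreg, 3.46, 3.74 and 3.81 in LG_eTconv and 0.99, 1.23 and 1.83 in LG_naive. On both, all LG_eTconv arrays lay above all arrays of the other gland groups. On 1420066_PM_s_at only 1 of 3 LG_eTreg arrays and 2 of 3 LG_naive arrays were above background, so the size of its differences is uncertain. On the dimmer probe set 1420396_PM_at the values were 1.25, 1.18 and 1.17 in LG_eTreg, 1.99, 2.79 and 2.57 in LG_eTconv and 1.54, 0.83 and 1.77 in LG_naive. LG_eTconv was again highest, with 2 of 3 arrays of LG_eTreg and of LG_naive at or below background.

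Tested over all probe sets with limma, LG_eTconv exceeded LG_naive by a log2 difference of 2.36 (SE 0.26, adjusted p = 0.000916) on 1420067_PM_at and by 2.32 (SE 0.22, adjusted p = 0.000394) on 1420066_PM_s_at. LG_eTreg was below LG_eTconv by -2.57 (adjusted p = 0.00144) and -2.58 (adjusted p = 0.000565) on the same probe sets. For 1420396_PM_at the differences were 1.07 (adjusted p = 0.0470) for LG_eTconv minus LG_naive and -1.25 (adjusted p = 0.0494) for LG_eTreg minus LG_eTconv. Both calls were lost when LG_eTconv 2 was left out, at adjusted p = 0.151 and 0.163, and when LG_eTconv 3 was, at 0.136 and 0.152. In each comparison 7 of 9 removals of 1 array ended the call. It was kept without LG_eTconv 1 or LG_naive 3 against LG_naive, and without LG_eTconv 1 or LG_naive 2 in LG_eTreg against LG_eTconv. Both calls on 1420396_PM_at also ended without both LG_eTreg 3 and LG_naive 1, at adjusted p = 0.104 and 0.150. LG_eTreg minus LG_naive was between -0.26 and -0.18 on these 3 probe sets and passed on none, with adjusted p between 0.638 and 0.823.

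The fourth Cd160 probe set, 1456847_PM_at, was brightest on average and therefore stood for the gene, and it did not follow the other 3. Its log2 signal was 2.95, 3.35 and 5.04 in LG_eTreg, 4.09, 3.83 and 4.24 in LG_eTconv and 4.47, 2.95 and 2.75 in LG_naive. The highest value of LG_eTreg and that of LG_naive came from the 2 arrays with the highest 18S signal, and all 3 gland groups overlapped. The gene-level difference was 0.66 for LG_eTconv minus LG_naive (SE 0.59, adjusted p = 0.576) and -0.27 for LG_eTreg minus LG_eTconv (adjusted p = 0.906). Without those 2 arrays it was 1.20 (adjusted p = 0.00709) and -0.90 (adjusted p = 0.0462). The mean of the 4 probe sets gave 1.60 (adjusted p = 0.00135) and -1.67 (adjusted p = 0.00243) with all arrays. Of the 10 probe sets of genes other than Pdcd1, 3 were called in LG_eTreg against LG_naive, 7 in LG_eTconv against LG_naive and 6 in LG_eTreg against LG_eTconv. Over all probe sets 7.6% were called in LG_eTreg against LG_naive, 9.11% in LG_eTconv against LG_naive and 3.46% in LG_eTreg against LG_eTconv.

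**Figure D2:**
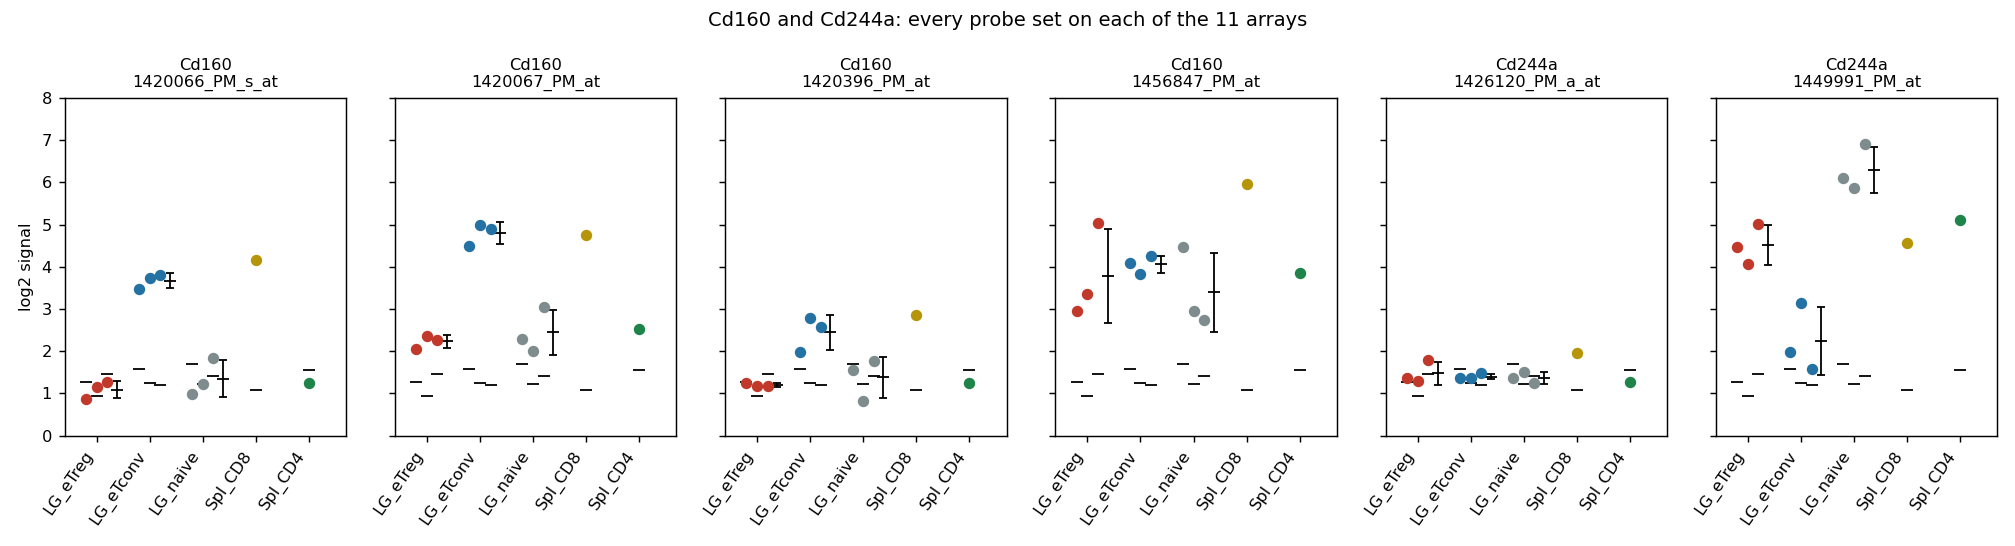
Log2 signal (vertical axis) of the 4 Cd160 and 2 Cd244a probe sets on each of the 11 arrays, by group (LG_eTreg, LG_eTconv, LG_naive, Spl_CD8, Spl_CD4), with background limits as short dashes and the group mean ± SD (n = 3) for the gland groups. Cd160 is highest among gland groups in LG_eTconv on 3 probe sets, while 1456847_PM_at has single high arrays in LG_eTreg (5.04) and LG_naive (4.47).

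Havcr2, which encodes TIM-3, was called as higher in LG_eTreg than in both other gland groups. Its log2 signal was 3.98, 4.76 and 4.13 in LG_eTreg, 0.59, 1.47 and 1.37 in LG_eTconv and 1.84, 3.10 and 2.36 in LG_naive. No gland groups overlapped, and the LG_eTconv array at 0.59 was below its background limit. LG_eTreg exceeded LG_eTconv by a log2 difference of 3.15 (SE 0.37, limma adjusted p = 0.00145). Since the other LG_eTconv arrays lay little above their limits, the size is uncertain, and it was 2.59 (adjusted p = 0.0103) with values set to the background limit. It exceeded LG_naive by 1.85 (SE 0.37, 3.61-fold, adjusted p = 0.0126), a call that ended without LG_eTreg 3 and LG_naive 1 (1.63, adjusted p = 0.0590). LG_eTconv minus LG_naive was -1.29 and missed the threshold (adjusted p = 0.0540). That difference was called in 6 of 18 other settings, among them without LG_naive 1 (-1.59, adjusted p = 0.0282). Spl_CD8 was at 0.57, below its limit, and Spl_CD4 at 1.71.

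Cd244a, which encodes the SLAM family receptor known as CD244, was highest in LG_naive, the group negative for PD-1. On probe set 1449991_PM_at, which stood for the gene, its log2 signal was 4.48, 4.06 and 5.02 in LG_eTreg, 1.99, 3.13 and 1.57 in LG_eTconv and 6.09, 5.87 and 6.90 in LG_naive. No gland groups overlapped. LG_eTconv was below LG_naive by a log2 difference of -4.06 (SE 0.44, 16.6-fold, limma adjusted p = 0.000426), a call kept in all 18 other settings. Since LG_eTconv 1 and LG_eTconv 3 lay little above their limits of 1.57 and 1.20, the size of differences from LG_eTconv is uncertain. LG_eTreg was below LG_naive by -1.77 (SE 0.44, 3.41-fold, adjusted p = 0.0360) and above LG_eTconv by 2.29 (SE 0.44, 4.87-fold, adjusted p = 0.0193). The call against LG_naive was lost in 11 of 18 settings, including the removal of LG_eTconv 1, LG_eTreg 1, LG_eTreg 2, LG_naive 1, LG_naive 2 or LG_naive 3 (adjusted p = 0.0511 to 0.117) and that of both LG_eTreg 3 and LG_naive 1 (0.0662). Another was the limma fit over all probe sets, where 1449991_PM_at was not called in LG_eTreg against LG_naive (adjusted p = 0.0520). The call against LG_eTconv was lost in 7 of 18, including the removal of LG_eTconv 1, LG_eTconv 3, LG_eTreg 1 or LG_eTreg 3 (adjusted p = 0.0540 to 0.0780) and that of both LG_eTreg 3 and LG_naive 1 (0.0871). With values set to the background limit the difference of LG_eTreg from LG_eTconv was 2.24 (adjusted p = 0.0607). The other probe set, 1426120_PM_a_at, lay between 1.24 and 1.78 on all gland arrays, near background, and differed in no comparison. Spl_CD8 was at 4.56 and Spl_CD4 at 5.11 on 1449991_PM_at.

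**Figure D3:**
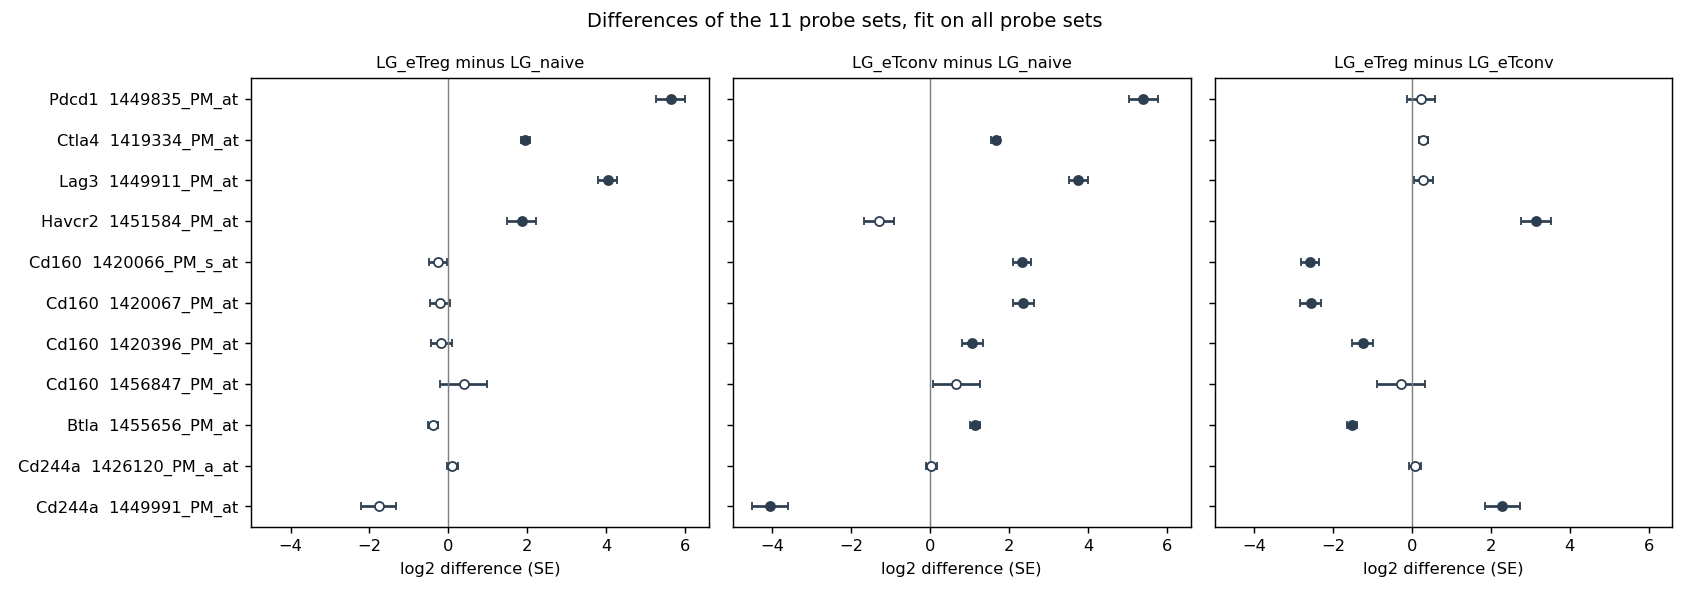
Log2 difference ± SE (horizontal axis) of each of the 11 probe sets in LG_eTreg minus LG_naive, LG_eTconv minus LG_naive and LG_eTreg minus LG_eTconv, from the limma fit on all probe sets; filled points have an adjusted p under 0.05. Lag3 lies at 4.04 and 3.75 against LG_naive and near 0 between the effector subsets, whereas Havcr2 (3.15) and Btla (-1.52) lie on opposite sides in LG_eTreg minus LG_eTconv.

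Markers of other cell types moved with the groups, and their part in the differences of Havcr2, Cd244a, Cd160 and Btla was not tested. Myeloid cells carry TIM-3 and CD244. The summed signal of 13 monocyte and macrophage markers was 7.22 to 7.32 in LG_eTreg, 7.11 to 7.37 in LG_eTconv and 8.84 to 9.37 in LG_naive (log2 of the sum). Of these 13, 5 were called as lower in LG_eTreg and 7 in LG_eTconv than in LG_naive, where Tyrobp averaged 8.07, Lyz2 7.36, Cd68 5.83 and Cd14 4.80, and none was higher. In LG_eTreg against LG_eTconv 1 was called, Cd14, at 3.38 and 1.72 (limma adjusted p = 0.00579), so that Cd14 had the same order of groups as Cd244a. Csf1r and Mertk of this list were at or below background on all gland arrays. The sum of 10 dendritic cell markers was 8.74 to 9.22 in LG_eTreg, 8.76 to 9.02 in LG_eTconv and 10.21 to 10.77 in LG_naive. Of these 10, 6 were called as lower in each effector subset than in LG_naive, 1 was higher in LG_eTreg, and Xcr1 was at or below background on all 11 arrays.

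The sum of 8 plasmacytoid dendritic cell markers was 7.39 to 7.55 in LG_eTreg, 7.83 to 8.12 in LG_eTconv and 9.37 to 9.45 in LG_naive, with no overlap. Against LG_naive 7 of 8 were called as lower in each effector subset and 1 as higher in LG_eTconv. Between LG_eTreg and LG_eTconv 4 were lower and 1 higher, Irf8, which averaged 5.23 in LG_eTreg, 3.52 in LG_eTconv and 6.26 in LG_naive (limma adjusted p = 0.000101) and so also had the order of Cd244a. The sum of 11 lacrimal gland epithelium markers was 9.17 to 9.76 in LG_eTreg, 8.98 to 9.31 in LG_eTconv and 9.80 to 10.52 in LG_naive. Of these, 2 were called as lower in LG_eTreg and 4 in LG_eTconv than in LG_naive, and 2 were higher in LG_eTreg than in LG_eTconv, Epcam and Krt18. Epcam averaged 6.37 in LG_eTreg, 3.32 in LG_eTconv and 5.66 in LG_naive, the order of Havcr2 among the gland groups (LG_eTreg minus LG_eTconv 3.06, adjusted p = 0.000645). Unlike Havcr2, it was not called in LG_eTreg against LG_naive (0.71, adjusted p = 0.220). Cdh1, Krt8, Krt18 and Aqp5 of the same list had another order, with their highest means in LG_naive (5.31, 6.13, 6.20 and 3.61). Krt19, Elf3 and Cldn3 were at or below background on all gland arrays.

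CD8 T cells and natural killer cells carry CD160 and CD244. The sum of 9 of their markers was 5.96 to 6.48 in LG_eTreg, 6.74 to 7.25 in LG_eTconv and 7.37 to 7.40 in LG_naive. Cd8a of this list was, like Cd160, highest in LG_eTconv, with means of 5.17 in LG_eTreg, 6.48 in LG_eTconv and 4.92 in LG_naive. It was higher in LG_eTconv than in LG_naive by a log2 difference of 1.56 (limma adjusted p = 0.00161) and lower in LG_eTreg than in LG_eTconv by -1.31 (adjusted p = 0.00858). Cd8b1 averaged 1.08 in LG_eTreg, 1.53 in LG_eTconv and 1.69 in LG_naive, with no call. Klrd1 averaged 3.25 in LG_eTreg, 4.34 in LG_eTconv and 6.81 in LG_naive and was called as lower in both effector subsets, Eomes was called as lower in LG_eTconv, and Gzma, at 3.57 in LG_eTreg and 0.81 in LG_eTconv, was higher in LG_eTreg. Klrk1, Ncr1 and Klra8 were at or below background on all gland arrays, and the last 2 also on Spl_CD8. B cells carry BTLA. The sum of 9 B and plasma cell markers was 6.35 to 7.35 in LG_eTreg, 7.32 to 8.04 in LG_eTconv and 8.46 to 8.74 in LG_naive, with 6 called as lower in LG_eTreg and 2 in LG_eTconv than in LG_naive, and 1, Blnk, as lower in LG_eTreg than in LG_eTconv. Among them Jchain averaged 6.48 in LG_eTreg, 7.33 in LG_eTconv and 8.07 in LG_naive, and Ms4a1 1.57 in LG_eTreg, 3.57 in LG_eTconv and 3.43 in LG_naive. Pax5 was at or below background on all 11 arrays.

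**Figure D4:**
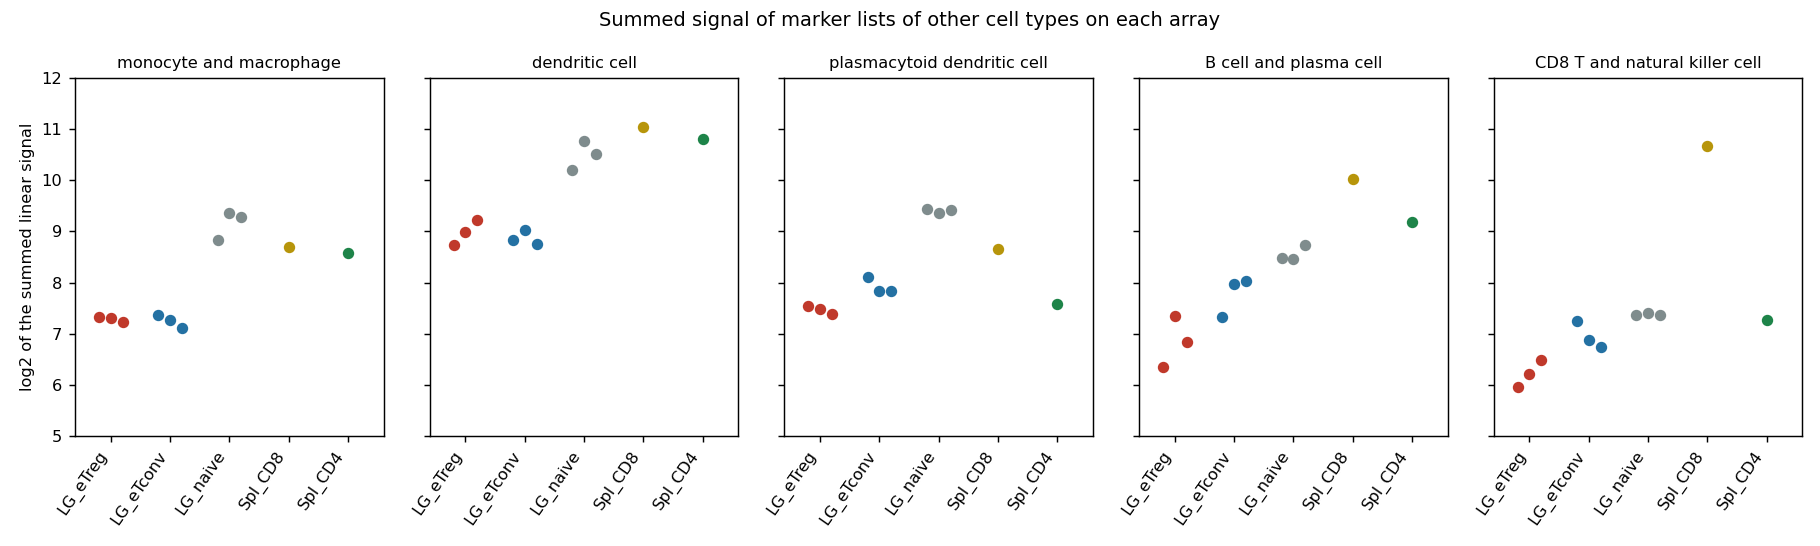
Summed signal (log2 of the summed linear values, vertical axis) of marker lists of 5 other cell types on each array, by group (LG_eTreg, LG_eTconv, LG_naive, Spl_CD8, Spl_CD4). LG_naive exceeds both effector subsets for macrophage (8.84 to 9.37), dendritic (10.21 to 10.77) and plasmacytoid dendritic cell markers (9.37 to 9.45). It also does so for B and plasma cell (8.46 to 8.74) and CD8 T and natural killer cell markers (7.37 to 7.40).

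The spleen arrays place the gland levels beside those of unselected T cells, with no test because there was 1 array each. Their summed signal of B and plasma cell markers, 10.04 in Spl_CD8 and 9.19 in Spl_CD4, exceeded that of every gland array. The same held for dendritic cell markers, at 11.05 and 10.81. The part of such cells in the spleen levels, among them that of Btla, was not tested. Tissue of origin, with any difference in its handling, cannot be told apart from other differences between gland and spleen arrays. A gene was counted when it differed by 1 or more on the log2 scale with all gland arrays on 1 side of the spleen array. LG_eTreg minus Spl_CD4 counted 3 of the 6 genes, Ctla4 (4.69), Lag3 (4.93) and Havcr2 (2.58), where 12.4% of all genes were counted. LG_eTconv minus Spl_CD4 counted 3, Ctla4 (4.40), Lag3 (4.64) and Cd244a (-2.87), against 13.2% of all genes. Cd160 was not counted on 1456847_PM_at, which stood for the gene (0.20). It met the rule on 1420066_PM_s_at (2.43), 1420067_PM_at (2.28) and 1420396_PM_at (1.21). LG_naive minus Spl_CD4 counted Ctla4 (2.74) and Cd244a (1.18), against 9.24%. Spl_CD8 minus Spl_CD4 counted 4, against 8.25% of all genes. Lag3 (1.25) and Cd160 (2.10) were higher and Ctla4 (-3.30) and Havcr2 (-1.14) lower on the Spl_CD8 array. Havcr2 was below its limit on Spl_CD8 and, at 1.71 against 1.56, little above it on Spl_CD4. With values set to the background limit 3 genes were counted. All 4 Cd160 probe sets were higher in Spl_CD8 than in Spl_CD4, and the LG_eTconv level of 1420067_PM_at, 4.50 to 5.0, enclosed the Spl_CD8 value of 4.75.

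Ligands of these receptors were measured within the same sorted T cells. The ligand list left out MHC class II, which binds LAG-3 and was counted with the dendritic cell markers. There H2-Aa, H2-Ab1 and H2-Eb1 were called as lower in both effector subsets than in LG_naive. Their log2 differences were -2.25, -1.55 and -1.67 in LG_eTreg and -2.18, -1.57 and -1.75 in LG_eTconv. Of 10 ligand genes 2 were higher and none lower in LG_eTreg than in LG_naive, 1 was higher and 1 lower in LG_eTconv than in LG_naive, and 1 was higher and 1 lower in LG_eTreg than in LG_eTconv. In each comparison 20.0% of the list was thus called, against 11.7%, 13.5% and 5.69% of all genes. The median log2 difference was 0.10 for LG_eTreg minus LG_naive, against -0.02 over all genes, and under 0.01 in size for the other comparisons. Pdcd1lg2, which encodes the PD-1 ligand PD-L2, was at a log2 signal of 4.89 ± 0.43 in LG_eTreg, 6.08 ± 0.29 in LG_eTconv and below background in LG_naive (n = 3 each). It was at least 10.9-fold higher in LG_eTreg (limma adjusted p = 2.73e-05) and at least 24.8-fold higher in LG_eTconv (adjusted p = 5.79e-06) than in LG_naive. The difference between LG_eTreg and LG_eTconv, -1.19 (adjusted p = 0.0490), was lost in 12 of 18 other settings, among them the removal of any single array other than LG_eTreg 3 or LG_naive 2 (highest adjusted p = 0.158), and it was 0.0579 without both LG_eTreg 3 and LG_naive 1. Cd274, the gene of PD-L1, was well above background in every gland group at 8.17 ± 0.15 in LG_eTreg, 8.39 ± 0.06 in LG_eTconv and 8.10 ± 0.14 in LG_naive, and was called in no comparison. Lgals3, a galectin that binds LAG-3, was higher in LG_eTreg than in LG_naive by a log2 difference of 1.76 (adjusted p = 0.0175) and than in LG_eTconv by 2.75 (adjusted p = 0.00327). The first of these calls was lost without LG_eTreg 3, LG_naive 2 or LG_naive 3 (highest adjusted p = 0.0616). Lgals9, a galectin ligand of TIM-3, was lower in LG_eTconv than in LG_naive (-0.97, adjusted p = 0.0344), a call lost in 8 of 18 settings that included the removal of any LG_eTconv array, LG_eTreg 2, LG_naive 1 or LG_naive 3 (highest adjusted p = 0.110). Tnfrsf14, the gene of HVEM, was at 3.52 ± 0.44 in LG_eTreg, 3.06 ± 0.36 in LG_eTconv and 3.18 ± 0.44 in LG_naive, with no call.

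Of 13 costimulatory and same-family receptor genes, leaving out Icos and Cd4 of the sort gate, 2 were higher and 2 lower in LG_eTreg than in LG_naive (30.8%, against 11.7% of all genes). In LG_eTconv 4 were higher and 1 lower than in LG_naive (38.5%, against 13.5%), and in LG_eTreg against LG_eTconv 2 were lower and none higher (15.4%, against 5.69%). The list's median log2 differences were -0.02, -0.01 and -0.03 in these comparisons, against -0.02, -0.03 and 0.01 over all genes. Slamf6, a SLAM family relative of Cd244a, was at 6.33 ± 0.12 in LG_eTreg, 8.46 ± 0.10 in LG_eTconv and 6.35 ± 0.08 in LG_naive. It was higher in LG_eTconv than in LG_naive by a log2 difference of 2.11 (limma adjusted p = 6.11e-06) and lower in LG_eTreg than in LG_eTconv by -2.13 (adjusted p = 1.20e-05). Tnfsf14, the gene of LIGHT, a further binding partner of HVEM, was higher in LG_eTconv than in LG_naive by 4.02 (adjusted p = 0.00344). Only 2 of 3 LG_naive arrays were above background for it, so that size is uncertain. LG_eTreg minus LG_eTconv was -3.22 for Tnfsf14 (adjusted p = 0.0217) and lost its call in 5 of 18 settings, among them without LG_eTconv 2, LG_eTconv 3, LG_eTreg 1 or LG_eTreg 2 (highest adjusted p = 0.0839). Havcr1, the TIM family relative of Havcr2, was at 3.59 ± 0.28 in LG_naive and below background in both effector subsets, at least 5.17-fold lower in LG_eTreg (adjusted p = 5.03e-06) and at least 4.76-fold lower in LG_eTconv (adjusted p = 3.25e-06). Its other probe set was called in neither comparison. Slamf1 was higher in both effector subsets, by 1.29 in LG_eTreg (adjusted p = 0.00113) and 0.91 in LG_eTconv (adjusted p = 0.00639, and 0.0879 when its probe sets were averaged). Its 2 other probe sets were called in neither comparison. Icos, a costimulatory relative that belonged to the gate, was higher by 1.22 in LG_eTreg and 1.06 in LG_eTconv, which is no finding. Cd2, the receptor for CD48 in mice, was higher in LG_eTreg than in LG_naive by 0.53 (adjusted p = 0.00464). Cd226 was called as lower in LG_eTreg than in LG_naive (-0.635, adjusted p = 0.0388) near background, and 13 of 17 settings ended that call, among them every removal of 1 array but that of LG_eTreg 2 and the removal of both LG_eTreg 3 and LG_naive 1 (adjusted p = 0.160). Cd4, a gate gene and relative of Lag3, was lower in LG_eTreg than in LG_eTconv by -0.55 (adjusted p = 0.00845, and 0.163 when its probe sets were averaged).

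Of 19 measured genes whose products act on the tails or the transport of these receptors, 6 were higher and 2 lower in LG_eTreg than in LG_naive (42.1%, against 11.7% of all genes). In LG_eTconv 2 were higher and 3 lower than in LG_naive (26.3%, against 13.5%). In LG_eTreg against LG_eTconv 6 were higher, 1 was lower and 12 were not called (36.8% called, against 5.69%). The list's median log2 difference was 0.22 for LG_eTreg minus LG_naive and 0.13 for LG_eTconv minus LG_naive, against -0.02 and -0.03 over all genes. Ptpn11, which encodes SHP-2, was at 8.92 ± 0.14 in LG_eTreg, 10.04 ± 0.05 in LG_eTconv and 8.40 ± 0.09 in LG_naive. The log2 difference of LG_eTconv from LG_naive was 1.63 (limma adjusted p = 2.40e-05) and that of LG_eTreg from LG_eTconv -1.12 (adjusted p = 0.000468), while a second Ptpn11 probe set was called in neither. Trat1, an adaptor that promotes transport of CTLA-4 to the surface, was at 4.04 ± 0.34 in LG_eTreg, 1.89 ± 0.10 in LG_eTconv and 6.89 ± 0.04 in LG_naive. It was lower than in LG_naive by -2.85 in LG_eTreg (adjusted p = 1.68e-05) and by -5.0 in LG_eTconv (adjusted p = 8.94e-07), and LG_eTreg exceeded LG_eTconv by 2.15 (adjusted p = 0.000124). Lrba, which protects CTLA-4 from breakdown in lysosomes, was higher in LG_eTreg than in LG_naive by 1.24 (adjusted p = 0.00125). Its excess over LG_eTconv, 0.83 (adjusted p = 0.0181), was lost in 6 of 18 settings, including the removal of LG_eTconv 2, LG_eTconv 3, LG_eTreg 1 or LG_eTreg 3 (highest adjusted p over settings 0.154). No other Lrba probe set was called in that comparison. Dok2, an adaptor that restrains signalling, was higher in LG_eTreg than in LG_naive (1.29, adjusted p = 0.000703) and than in LG_eTconv (0.99, adjusted p = 0.00541). Ptpn22, a phosphatase that restrains T cell receptor signals, was higher than in LG_naive by 0.96 in LG_eTreg (adjusted p = 0.000611) and 0.75 in LG_eTconv (adjusted p = 0.00211). Pag1, the adaptor that holds the inhibitory kinase CSK at the membrane, was lower than in LG_naive by -0.89 in LG_eTreg (adjusted p = 0.00109) and -1.70 in LG_eTconv (adjusted p = 2.42e-05). Pik3r1, a regulatory subunit of phosphoinositide 3-kinase, was lower in LG_eTconv than in LG_naive by -1.14 (adjusted p = 0.00173), and LG_eTreg exceeded LG_eTconv by 1.0 (adjusted p = 0.00736).

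Of 17 other inhibitory receptors 6 were higher and 4 lower in LG_eTreg than in LG_naive (58.8% called, against 11.7% of all genes, and a median log2 difference of 0.30, against -0.02). In LG_eTconv 3 were higher and 4 lower than in LG_naive (41.2%, against 13.5%, median -0.62, against -0.03). In LG_eTreg against LG_eTconv 5 were higher and 1 lower (35.3%, against 5.69%, median 0.17, against 0.01). Lilrb4a was at 7.89 ± 0.29 in LG_eTreg, 3.21 ± 0.76 in LG_eTconv and 4.71 ± 0.85 in LG_naive, and LG_eTreg exceeded LG_eTconv by a log2 difference of 4.68 (limma adjusted p = 0.000645). Lilrb4a has a close neighbouring paralog, so its signal may be shared. Klrg1, a lectin-like receptor of differentiated effector cells, was above background among the gland groups only in LG_eTreg, at least 4.62-fold higher than in LG_eTconv (adjusted p = 8.80e-06) and at least 4.30-fold higher than in LG_naive (adjusted p = 8.29e-06). Lair1, a collagen receptor, was at 1.99 ± 0.71 in LG_eTreg, 2.02 ± 0.26 in LG_eTconv and 7.11 ± 0.18 in LG_naive, lower by -5.12 in LG_eTreg (adjusted p = 2.80e-05) and by -5.09 in LG_eTconv (adjusted p = 1.99e-05). Only 2 of 3 LG_eTreg arrays were above background for it, so the size there is uncertain. Lair1 is also expressed by myeloid cells, whose marker sums were higher in LG_naive, and their part in it was not tested. Entpd1, the ectoenzyme CD39, was higher in both effector subsets, by 2.43 in LG_eTreg (adjusted p = 6.72e-05) and 1.43 in LG_eTconv (adjusted p = 0.00103). The other Entpd1 probe set was not called in LG_eTconv against LG_naive. The excess of Entpd1 in LG_eTreg over LG_eTconv was lost without LG_eTconv 1 or LG_eTconv 2 (adjusted p = 0.0142, at most 0.0591). Klrc1, the gene of NKG2A, was at least 1.68-fold higher in LG_eTconv than in LG_naive, where it was below background (adjusted p = 0.00808, and 0.254 with values set to the background limit). Its call in LG_eTreg against LG_naive (adjusted p = 0.0137) ended without LG_eTreg 3 and LG_naive 1 (0.0847). That call also ended without LG_eTreg 2 or LG_naive 3 and with values set to the background limit (0.421). The other Klrc1 probe set was called in neither comparison. Pecam1 was lower in LG_eTreg than in LG_naive by -3.01 (adjusted p = 0.000583). Its lower signal in LG_eTconv than in LG_naive (-1.38, adjusted p = 0.0281) was lost without any LG_eTconv array, LG_naive 1 or LG_naive 3 (highest adjusted p = 0.0965). That in LG_eTreg against LG_eTconv (-1.63, adjusted p = 0.0260) was lost without any LG_eTconv array or LG_eTreg 2 (highest adjusted p = 0.0998). Cd200r1, the receptor for CD200, was higher in LG_eTreg than in LG_eTconv by 1.96 (adjusted p = 0.00207) and lower in LG_eTconv than in LG_naive by -1.23 (adjusted p = 0.0112). With 2 of 3 LG_eTconv arrays above background, these sizes are uncertain. The other Cd200r1 probe set was not called in LG_eTconv against LG_naive.

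Of 19 transcription factors known to act on these receptor genes, 6 were higher and 1 lower in LG_eTreg than in LG_naive (36.8%, against 11.7% of all genes). In LG_eTconv 5 were higher and 3 lower than in LG_naive (42.1%, against 13.5%), and in LG_eTreg against LG_eTconv 3 were higher and none lower (15.8%, against 5.69%). The list's median log2 difference was 0.21 for LG_eTreg minus LG_naive, 0.26 for LG_eTconv minus LG_naive and 0.02 for LG_eTreg minus LG_eTconv, against -0.02, -0.03 and 0.01 over all genes. The T-box factor Tbx21 was higher by 4.31 in LG_eTreg and 3.68 in LG_eTconv, and Maf by 3.66 and 3.30, than in LG_naive. Nfatc1, a calcium-regulated factor, was higher by 1.94 in LG_eTreg (limma adjusted p = 0.00103) and by 2.33 in LG_eTconv (adjusted p = 0.000308) than in LG_naive. Nr4a2, a nuclear receptor induced by antigen signals, was higher by 1.63 (adjusted p = 0.000130) and 1.64 (adjusted p = 0.000104) in the same comparisons. Prdm1, which encodes BLIMP-1, was at 8.07 ± 0.05 in LG_eTreg, 4.54 ± 0.57 in LG_eTconv and 4.28 ± 0.30 in LG_naive, and LG_eTreg exceeded LG_eTconv by 3.52 (adjusted p = 0.000129). Foxp3 exceeded LG_eTconv by 3.94 in LG_eTreg (adjusted p = 0.00207). Egr1, an immediate early gene, was higher there by 0.51 (adjusted p = 0.0196) and lost that call without LG_eTreg 1, LG_eTreg 2 or any LG_eTconv array (highest adjusted p = 0.0724), or without both LG_eTreg 3 and LG_naive 1 (0.0618). Eomes, a T-box factor of CD8 and natural killer cells, was lower in LG_eTconv than in LG_naive by -1.79 (adjusted p = 0.0234), a call lost without LG_eTconv 3, LG_naive 2 or LG_naive 3 (highest adjusted p = 0.0733). With 2 of 3 LG_eTconv arrays above background, its size is uncertain. The other Eomes probe set was not called in this comparison.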

How the data were processed

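Gene-level RNA was measured on arrays from 3 groups of sorted lacrimal gland CD4 T cells (3 arrays each) and from Spl_CD8 and Spl_CD4 (1 array each). The authors deposited RMA-summarised log2 signals from Partek, per the submitters' processing notes (versions are not given in the sources used here). That the base is 2 is inferred from RMA. Per the labels' protocols, NuGEN Ovation amplification and biotin labelling were used, and 1 sample, not tied to a group, had a lower RNA integrity number. Array signals give no counts, so the number of arrays limits the precision.

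Without 104 controls the table held 45037 of 45141 probe sets, of which 28898 had 1 gene symbol in the platform annotation, 551 had several and 15588 had none. Each of 17097 genes was represented by its brightest probe set (mean over the 9 gland arrays), and 7180 of them had more than 1. Levels are not compared between probe sets.

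Group means over the 9 gland arrays were compared with limma 3.58.1 in R 4.3.3 (6 residual degrees of freedom, two-sided, Benjamini-Hochberg over all genes or all probe sets, threshold 0.05), a method tested on simulated data. Differences are first group minus second. For a group entirely at or below background, "at least N-fold" was computed against the limit. Of each gene list, up to 5 called genes with the largest difference per comparison were named. The genes and lists were chosen with earlier results of these data known. Alternatives were a filter on dim genes, values set to the background limit, quantile normalization, 2 groups per fit, an intensity trend with a robust prior, the replicate block, leaving out each array, the mean of probe sets, all probe sets tested and, chosen after seeing the data, leaving out the 2 arrays with the highest 18S signal.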

Additional observations from a re-analysis of the deposited data

How the results depend on the processing

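Each of the 21 differences of the 7 genes was recomputed under 18 alternative settings. Of these 378 values, 343 kept their direction and side of the threshold, 19 lost their call and 10 gained one. A further 6 changed sign without being called, and no called value reversed. They were Cd160 in LG_eTreg minus LG_naive (-0.24 without LG_eTreg 3, -0.07 with the mean of probe sets) and in LG_eTreg minus LG_eTconv (0.14 without LG_eTreg 1), and Pdcd1 in LG_eTreg minus LG_eTconv in 3 settings (down to -0.12). Leaving out the 2 arrays with the highest 18S signal left 2 called genes instead of 4 in LG_eTreg against LG_naive. With all probe sets tested, 3424, 4103 and 1557 probe sets were called in LG_eTreg against LG_naive, LG_eTconv against LG_naive and LG_eTreg against LG_eTconv, where 1995, 2303 and 973 genes were called, since more features were tested. With the mean of probe sets, LG_naive minus Spl_CD4 counted 1 gene instead of 2 and LG_eTconv minus Spl_CD4 counted 4 instead of 3. With values set to the background limit, Spl_CD8 minus Spl_CD4 counted 3 instead of 4.

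Leaving out 1 array at a time gave, in the same order of comparisons, 3 to 4, 4 to 5 and 2 to 3 of the 6 genes called. Over all genes it gave 1512 to 1845, 1770 to 2414 and 683 to 969 calls. For the probe sets of these genes it gave 2 to 4, 6 to 7 and 4 to 6.

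The labels do not say that replicate numbers mark shared mice, and they were not used as pairs. Correlations of the deviations of same-numbered arrays ran from -0.097 to 0.283 over 9 pairs, and were 0.283, 0.079 and 0.171 between LG_eTreg and LG_eTconv. For 6 of 9 arrays the best match in another group had the same number, a hint from the data and not the design. With the replicate block 3, 5 and 2 of the 6 genes were called, and 1929, 2271 and 906 genes in all. Cd244a was not called under it in LG_eTreg minus LG_naive (adjusted p = 0.0763) or LG_eTreg minus LG_eTconv (adjusted p = 0.0546), and Havcr2 was called in LG_eTconv minus LG_naive (adjusted p = 0.00398).

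Signal near background limits Havcr2 in LG_eTconv, Cd160 1420396_PM_at and 1420066_PM_s_at in LG_eTreg and LG_naive, and Cd244a 1426120_PM_a_at. Values there are close to the limits of their arrays.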

Other observations

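The genes whose values most resembled each receptor over the 11 arrays are given as a description, by Pearson's r across arrays that share their groups. They were searched among 2879 genes that spanned at least 2 on the log2 scale. For Ctla4 they were Hspa2 (0.980), Lmna (0.978) and Phlda1 (0.976). Phlda1 averaged 7.77 in LG_eTreg, 7.56 in LG_eTconv, 6.88 in LG_naive, 1.26 in Spl_CD8 and 3.59 in Spl_CD4. For Lag3 they were Ypel4 (0.978), the chemokine receptor gene Ccr8 (0.977) and Plpp2 (0.976). Ccr8 averaged 6.55 in LG_eTreg, 6.10 in LG_eTconv and 0.65 in LG_naive.

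For Havcr2 the nearest genes were Aplp2 (0.960), Zdhhc23 (0.951) and the spermine oxidase gene Smox (0.948). Smox averaged 4.72 in LG_eTreg, 1.83 in LG_eTconv and 2.56 in LG_naive. For Btla they were Magi3 (0.974), Slamf6 (0.952) and the proton channel gene Hvcn1 (0.949). Hvcn1 averaged 5.10 in LG_eTreg, 7.0 in LG_eTconv and 5.65 in LG_naive, and it was also among the 3 nearest genes of the Cd160 probe sets 1420067_PM_at (0.923) and 1420066_PM_s_at (0.891). For Cd244a they were the adaptor gene Grap2 (0.959), Sh3pxd2a (0.929) and Slc35f6 (0.924). Grap2 averaged 3.02 in LG_eTreg, 2.13 in LG_eTconv and 4.32 in LG_naive. For the Cd160 probe set that stood for the gene they were Zfp595 (0.891), Lsm10 (0.807) and H2-Oa (0.801), with lower values of r than for the other receptors. The peroxisomal membrane gene Pxmp2 was nearest to each of the other 3 Cd160 probe sets (0.935 to 0.945).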
